A study of Mus musculus with 175 samples.

Results

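The myeloid granule protease genes are a set of 8 that were followed as single transcripts through fetal liver progenitors: Mpo, Prtn3, Elane, Ctsg, Prss57, Ms4a3, Cpa3 and Srgn. They were taken by symbol from the deposited gene annotation, in which all 8 were found among 49585 mouse genes. A mean of at least 1 read over the cells kept was reached by 5 of them, Mpo, Prtn3, Ms4a3, Cpa3 and Srgn, while Elane, Ctsg and Prss57 stayed below it.

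Azurophil (primary) granules are filled at the promyelocyte stage of granulocyte development, when the serine protease genes and myeloperoxidase are transcribed together, before the secondary granule proteins appear. The proteases are made as inactive precursors, trimmed by the dipeptidase cathepsin C, packed as cationic proteins on the chondroitin sulphate chains of serglycin and held in check by intracellular serpins. Mast cells fill their granules from a related set, with carboxypeptidase A3 and their own tryptases and chymases stored on heparin-bearing serglycin, and in progenitors the transcripts of such genes are widely used as marks of granulocyte, monocyte and mast cell potential.

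The cells came from E14.5 fetal livers of 2 pooled litters of C57BL/6 crossed with ICR mice that carried Runx1 P1-GFP::P2-hCD4/+, a heterozygous dual reporter in which human CD4 at the cell surface reads out the P2 promoter of Runx1 (one label field of the deposit writes the genotype as P2-GFP::P2-hCD4/+). Lin- SCA1- cKIT+ CD16/32low CD41- CD150+ cells were sorted one per well, as CD34- megakaryocyte/erythroid progenitors (MEPs) or CD34+ common myeloid progenitors (CMPs), with or without hCD4, and were sequenced by Smart-Seq2, a full-length cDNA method. Of 175 cells 172 passed the filters of the study, 56 MEPs without hCD4 (P2- MEPs) and 47 with it (P2+ MEPs), 27 CMPs labelled low and 42 labelled high. The labels do not name the marker that is low or high, and since the protocol sorted both gates on hCD4 these cells are taken here as P2- and P2+ CMPs, a reading on which every value given for CMPs by hCD4 rests. Values for the 4 populations are given in this order throughout. The subtype label of 1 P2- CMP names MEPs. Values that it moved across the 2-fold limit are also given without it. So are the share of P2- CMPs with Cpa3, the log2 ratios of Cpa3 and the counts of genes read beside it there. Each population is 1 pool without a replicate, so ratios between populations were not tested. Intervals of levels and ratios cover the counting of reads only, PCR copies included. Those of shares of cells cover only the drawing of cells from that 1 pool.

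The sort was visible in the counts. Cd34, the antigen that divides the gates, had pooled levels of 0.0327, 13.05, 274.3 and 541 counts per 1000000 reads on mouse genes (CPM), and the erythroid factor Klf1 ran the other way with 478, 243.5, 87.4 and 4.59 CPM. Cells differed in depth in the same order as many of the values below, with medians of 520540, 624148, 637603 and 804632 reads on mouse genes. Shares of cells with a read are therefore given after each cell was thinned to 100000 reads, which left out 0 cells. The macrophage markers Adgre1, C1qa, C1qb and C1qc had no read in any of the 4 populations. The macrophage list of 8 genes had summed pooled levels of 1.27, 10.2, 6.22 and 6.27 CPM. Its 1 gene with a mean of at least 1 read was Cd68. The log2 ratio of Cd68 was 2.89 in P2+ over P2- MEPs and 2.39 in P2- CMPs over P2- MEPs. It was -0.07 in P2+ over P2- CMPs and -0.57 in P2+ CMPs over P2+ MEPs. The hepatocyte list of 6 genes summed to between 10.6 and 24.7 CPM, and its part in the values below was not tested.

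The genes lie at scattered places in the genome, apart from one serine protease cluster. In GRCm38 with GENCODE M21 genes, Prss57 (chr10:79781474-79790961, minus strand), Prtn3 (chr10:79874476-79883174, plus strand) and Elane (chr10:79886247-79888215, plus strand) share one stretch of chromosome 10, on which Srgn also lies (chr10:62493833-62527451, minus strand). Mpo is at chr11:87793581-87804413 (plus strand), Ctsg at chr14:56099881-56102574 (minus strand), Ms4a3 at chr19:11629496-11640851 (minus strand) and Cpa3 at chr3:20215620-20242181 (minus strand). Counting ignored strand and set aside reads that fell on 2 genes, which touches 3 of these genes. Of the exonic bases of Prss57 40.7% are shared with Fstl3, of those of Mpo 15% with the antisense gene Gm11505, and of those of Prtn3 9.18% with the antisense gene Plppr3.

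The sequences upstream of the RefSeq start sites are shown for Mpo, Prtn3, Elane and Ctsg of the neutrophil set and for the mast cell gene Cpa3. They were picked because they differ in the short motifs found. The windows of Ms4a3 and Srgn, which hold neither of the motifs put in capitals, are not shown. They are from RefSeq on GRCm38.p6, read 5' to 3' along the gene, and bases inside annotated exons were left out, 203 of the 250 for Mpo, 53 for Prtn3 and 65 for Elane. Capitals mark GAGGAA, a longer form of the GGAA core bound by ETS factors such as PU.1. In Cpa3 they mark AGATAA, a longer form of the GATA core bound by GATA factors. The windows lie at chr11:87793534-87793580 (plus strand), chr10:79879417-79879613 (plus strand), chr10:79886062-79886246 (plus strand), chr14:56102575-56102824 (minus strand) and chr3:20242182-20242431 (minus strand).
Mpo: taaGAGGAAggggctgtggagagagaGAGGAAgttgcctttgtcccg
Prtn3: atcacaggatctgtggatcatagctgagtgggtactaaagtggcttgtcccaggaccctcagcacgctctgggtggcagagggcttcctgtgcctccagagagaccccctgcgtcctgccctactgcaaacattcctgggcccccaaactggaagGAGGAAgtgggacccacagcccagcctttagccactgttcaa
Elane: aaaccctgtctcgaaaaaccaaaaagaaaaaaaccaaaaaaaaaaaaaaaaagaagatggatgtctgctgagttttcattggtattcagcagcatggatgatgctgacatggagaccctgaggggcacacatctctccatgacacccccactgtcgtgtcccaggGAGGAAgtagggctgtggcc
Ctsg: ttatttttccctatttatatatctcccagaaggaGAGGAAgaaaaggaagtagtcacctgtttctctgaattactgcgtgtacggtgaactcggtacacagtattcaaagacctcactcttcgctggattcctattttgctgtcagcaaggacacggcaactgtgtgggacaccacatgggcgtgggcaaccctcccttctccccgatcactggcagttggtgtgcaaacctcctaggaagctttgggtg
Cpa3: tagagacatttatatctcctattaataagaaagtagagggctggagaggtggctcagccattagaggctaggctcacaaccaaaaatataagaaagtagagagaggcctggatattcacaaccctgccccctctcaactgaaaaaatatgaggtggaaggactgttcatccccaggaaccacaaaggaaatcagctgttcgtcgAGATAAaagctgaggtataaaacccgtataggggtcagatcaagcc
GAGGAA was found in the 250 bases upstream of 4 of the 7 members with an entry, at 2 places in Mpo, 95 bases before the start in Prtn3, 85 in Elane and near the far end of the window in Ctsg, each on the strand of the gene, and in 23.3% of all 32851 windows of this length. Ms4a3, Cpa3 and Srgn had no GAGGAA, though the shorter GGAA occurs in the window of each. AGATAA was found in Cpa3 alone of the 7, 46 bases before the start, and in 9.99% of all windows. The other letters searched on both strands were TTNNGNAA for C/EBP (in Ms4a3, 36.8% of all windows), TGNGGT for RUNX (in Ctsg and Cpa3, 40.1%), AACNG for MYB (in all but Ms4a3, 74.2%) and TATAAA (in Ctsg, Cpa3 and Srgn, 12.4%), and no match shown in capitals overlaps a match to another of these motifs. A second start of Srgn was not counted here, the motifs were chosen with the sequences in view, and a match is a run of letters and not a site shown to be bound.

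Mpo, the heme enzyme that makes hypochlorous acid in the azurophil granule, was read in few MEPs and in most CMPs. In MEPs the lowest and the median cell were at 0 on either side of the hCD4 gate, and the highest was at 45.2 CPM without hCD4 and at 313.5 CPM with it. The lowest, median and highest P2- CMPs were at 0, 164 and 925 CPM, and for P2+ CMPs these values were 0, 294.8 and 1368 CPM. The median cell was thus without a read in each MEP population and well above 100 CPM in each CMP population, and the ranges of all 4 overlapped. At 100000 reads per cell Mpo was read in 4 of 56 (7.14%, Clopper-Pearson interval 1.98 to 17.3%), 8 of 47 (17%, 7.65 to 30.8%), 19 of 27 (70.4%, 49.8 to 86.2%) and 40 of 42 cells (95.2%, 83.8 to 99.4%) of the 4 populations. The intervals of each MEP population lie below those of each CMP population. This describes cells of 1 pool each, and no difference between populations was tested. The pooled levels were 2.22, 12.7, 216.5 and 431 CPM. The log2 ratio of P2+ to P2- for MEPs was 2.52 (95% interval 2.14 to 2.91). For CMPs it was 0.99 (0.94 to 1.04), and 1.07 without the cell of conflicting label. Between CMPs and MEPs it was 6.61 in P2- cells (6.26 to 6.97) and 5.08 in P2+ cells (4.94 to 5.23), the latter a 33.9-fold difference. In the CMPs with any Mpo read, the median was 245.6 CPM in P2- cells and 302.1 CPM in P2+ cells. The intervals of the shares of CMPs with a read, with and without hCD4, overlapped narrowly.

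**Figure D1:**
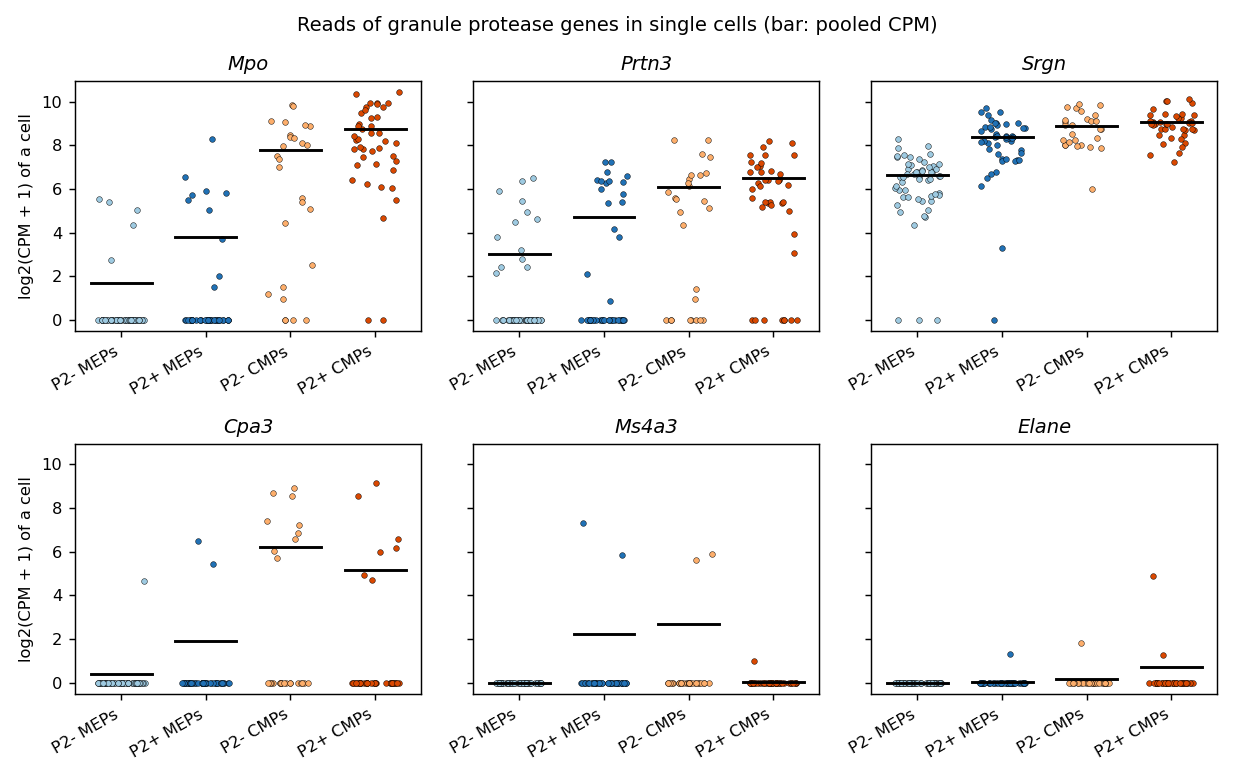
Level of 6 genes in every cell, as log2(CPM + 1) on the vertical axis, with 1 point per cell (172 cells in 4 populations) and a bar at the pooled CPM of the population. Mpo and Prtn3 are at 0 in most MEPs and read in most CMPs, Srgn is read in nearly every cell, and the levels of Cpa3, Ms4a3 and Elane rest on few cells.

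The MEPs with Mpo were few, and their reads were examined cell by cell at full depth. The 5 P2- MEPs with a read held 4, 10, 12, 17 and 25 Mpo reads, and all 5 also held at least 124 reads of Klf1 and none of Cd34. Of the 10 P2+ MEPs with a read, 3 held 4 reads or fewer and the others 21 to 149. At 100000 reads, Cd34 was read in 7 of 47 P2+ MEPs, which took in 5 of the 8 cells with Mpo. Klf1 was read in 6 of the 8, and Gata1, the shared erythroid and megakaryocytic factor, in all 8 and in each of the 47 cells.

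Prtn3, which encodes proteinase 3, was the serine protease with the highest level per length in each population. Its lowest cell was at 0 in all 4, its median cell at 0, 0, 43.2 and 70.5 CPM, and its highest at 88.6, 149.9, 299.6 and 287.6 CPM. The top cells of the CMP populations were close to each other, and all ranges overlapped. A read was found in 10 of 56 (17.9%, 8.91 to 30.4%), 15 of 47 (31.9%, 19.1 to 47.1%), 17 of 27 (63.0%, 42.4 to 80.6%) and 33 of 42 cells (78.6%, 63.2 to 89.7%), and within each gate the interval of the P2+ cells overlapped that of the P2- cells. Pooled levels of 7.19, 25.2, 67.0 and 90.7 CPM gave log2 ratios of P2+ to P2- of 1.81 for MEPs (1.59 to 2.03) and 0.44 for CMPs (0.34 to 0.53), and of CMPs to MEPs of 3.22 in P2- cells (3.01 to 3.43) and 1.85 in P2+ cells (1.74 to 1.96). Prtn3 therefore spanned a narrower range over the 4 populations than Mpo. Per kilobase of exon the order of these genes turned over between the gates: Prtn3 stood above Mpo in P2- MEPs (4.15 against 0.649 CPM per kilobase of exon, RPKM) and in P2+ MEPs (14.5 against 3.71 RPKM), and below it in P2- CMPs (38.7 against 63.2 RPKM) and P2+ CMPs (52.4 against 126 RPKM).

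Its antisense neighbour Plppr3, a lipid phosphatase-related gene, was measured beside it because reads on the shared exon cannot be assigned. Plppr3 was at 5.33, 3.61, 8.18 and 42.3 CPM, with a read in 24 of 42 P2+ CMPs. Across the 42 P2+ CMPs the levels of Prtn3 and Plppr3 had a Pearson r of -0.02 on log2(CPM + 1) at 100000 reads. It was 0.42 over the 27 P2- CMPs, 0.25 over the 47 P2+ MEPs and 0.16 over the 56 P2- MEPs. Plppr3 was read in 8, 5 and 6 of these cells. Of the other genes within 100 kb of the cluster that passed the filter, Ptbp1, a splicing regulator, was at 225.4, 222.2, 193.7 and 242.8 CPM, so that the high level in CMPs was not shared by the whole stretch.

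The remaining serine proteases were nearly without reads. Elane, neutrophil elastase, whose gene begins just downstream of Prtn3, had 0, 1, 2 and 23 reads, and 22 of the 23 were in a single P2+ CMP that also held 659 reads of Mpo and 58 of Prtn3. Without this cell each population was at or under 3 reads. Ctsg, cathepsin G, had 0, 2, 2 and 3 reads. Prss57, neutrophil serine protease 4, had 5 reads in 1 P2- MEP and 0 in the other populations. At 100000 reads, 0 of 42 P2+ CMPs held a read of Ctsg or of Prss57, which allows a share of up to 7.14% at 3 cells (Clopper-Pearson upper limit 8.41%), and 1 of 42 held one of Elane (2.38%, 0.0603 to 12.6%). The pooled level of Elane in P2+ CMPs was 0.633 CPM (0.401 to 0.949) and that of Ctsg 0.0825 CPM (0.0170 to 0.241). Per length Prtn3 was at 52.4, Elane at 0.643 and Ctsg at 0.0799 RPKM in these cells. The neighbours Prtn3 and Elane were thus apart in level in cells of the same gate.

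**Figure D2:**
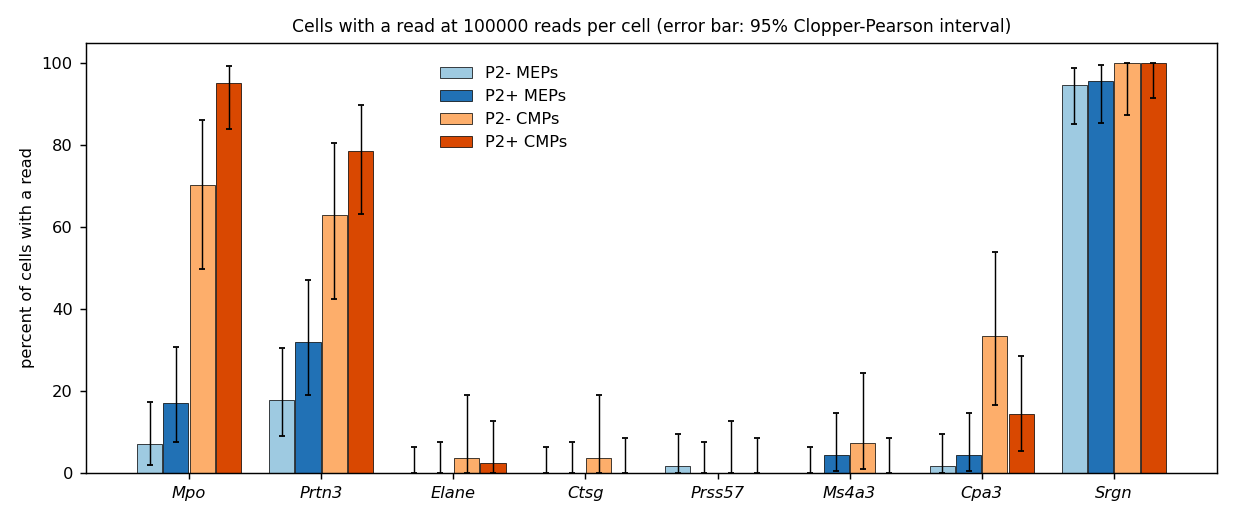
Percent of cells with a read of each of the 8 genes, after every cell was thinned to 100000 reads, with 95% Clopper-Pearson intervals, by population. Mpo is at 7.14% of P2- MEPs and 95.2% of P2+ CMPs, Srgn is at 94.6% or more in each population, and Elane, Ctsg and Prss57 stay at 3.70% or less.

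Ms4a3, a membrane protein with several spans that marks granulocyte and monocyte progenitors, was carried by few cells, and its pooled levels must be read with that in mind. No read was found in P2- MEPs. All 116 reads of P2+ MEPs came from 2 cells, with 75 and 41 reads, and all 99 of P2- CMPs from 2 cells, with 55 and 44. The P2+ CMPs held 1 read. Each of these first 4 cells also held Mpo, with 149 and 38 reads in the P2+ MEPs and 416 and 124 in the P2- CMPs, and 3 of them held Prtn3. They differed in the erythroid genes: the P2+ MEPs held 89 and 153 reads of Klf1 and at least 167 of Gata1, the P2- CMPs none of either and 458 and 468 reads of Cd34. The pooled levels of 0, 3.67, 5.40 and 0.0275 CPM gave a difference of at least 37.5-fold in favour of P2+ MEPs over P2- MEPs, at 3 reads over the whole population in place of 0, and a log2 ratio of -7.62 of P2+ to P2- CMPs, with an interval of -12.9 to -5.11. P2- CMPs exceeded P2- MEPs at least 55.1-fold, and P2+ CMPs lay below P2+ MEPs with a log2 ratio of -7.06 (-12.4 to -4.55). Without the cell of highest CPM in each population these became bounds on the log2 scale, since 1 side was then at 0 and set to 3 reads, namely at least 3.73, at most -5.20, at least 4.98 and at most -3.96. As shares of cells at 100000 reads, Ms4a3 was read in 2 of 47 P2+ MEPs (4.26%, 0.520 to 14.5%) and 2 of 27 P2- CMPs (7.41%, 0.910 to 24.3%), whereas 0 of 42 P2+ CMPs allows a share of up to 7.14% at 3 cells. The Clopper-Pearson upper limit there is 8.41%, and these 3 intervals overlap.

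Cpa3, the carboxypeptidase of mast cell granules, departed from the neutrophil genes in its order over the populations. Its median cell was at 0 in each of them, and its highest cell was at 24.2, 89.6, 486 and 566 CPM. It was read in 1 of 56 and 2 of 47 MEPs without and with hCD4, in 9 of 27 P2- CMPs (33.3%, 16.5 to 54%) and in 6 of 42 P2+ CMPs (14.3%, 5.43 to 28.5%), the last 2 intervals overlapping. Without the cell of conflicting label the P2- CMPs with Cpa3 were 8 of 26 (30.8%, 14.3 to 51.8%). Most cells were therefore without a read in every gate. The pooled levels were 0.327, 2.69, 72.7 and 34.2 CPM, which made Cpa3 lower in P2+ than in P2- CMPs, with a log2 ratio of -1.09 (-1.20 to -0.98). A single cell held 46.3% of the Cpa3 reads of P2+ CMPs and another 33.1% of those of P2- CMPs, and with these 2 cells left out the log2 ratio was -1.43. One P2- CMP, whose subtype label names MEPs, held 240 Cpa3 reads beside 151 of Klf1, 201 of Gata1 and 0 of Cd34, and without it the log2 ratio was -0.85, short of a 2-fold difference. It was -0.76 when reads of the ERCC spike-in RNA took the place of total reads. In P2+ over P2- MEPs the log2 ratio was 3.04 (2.09 to 4.15), on 85 reads in 2 cells against 10 reads in 1 cell, and at least 2.71 without the top cell of each. P2- CMPs exceeded P2- MEPs by 7.80 (6.91 to 8.86) and P2+ CMPs exceeded P2+ MEPs by 3.67 (3.35 to 4.0) on the log2 scale, and the first was 7.56 without the cell of conflicting label. Without the cells of highest CPM it was at least 9.32, as P2- MEPs were then at 0, and the second was 5.18.

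The other genes of mast cells and basophils were listed to set Cpa3 in its place. Of 25 such genes, with eosinophil genes among them, 7 passed the filter, of which 5, 1, 4 and 1 were at least 2-fold higher and 0, 2, 1 and 2 lower in the comparisons of P2+ with P2- MEPs, P2+ with P2- CMPs, P2- CMPs with P2- MEPs, and P2+ CMPs with P2+ MEPs. Of all genes tested 15%, 9.79%, 22.5% and 17% were higher and 6.46%, 9.33%, 9.28% and 10.3% lower. Ms4a2 and Fcer1a, which encode chains of the high-affinity IgE receptor, the tryptase gene Tpsab1 and Gzmb had no read in any population. The 8 mast and basophil markers, Cpa3 and Hdc among them, summed to 11.6, 12.8, 112 and 43.99 CPM, and the part of such cells in the level of Cpa3 was not tested. Hdc, the histamine-forming enzyme, was at 1.70, 4.05, 24.8 and 7.12 CPM, and like Cpa3 it was highest in P2- CMPs. Mitf, a master factor of mast cells, had another order, at 0.98, 2.50, 0.218 and 1.76 CPM. Fcer1g, the gamma chain shared by several Fc receptors, was at 0.948, 12.7, 86.0 and 70.0 CPM. Of the 9 P2- CMPs with Cpa3, 7 held Gata1 (15 of all 27 P2- CMPs), all 9 held Gata2, a factor of mast cell and early progenitors (25 of 27), and 2 held Hdc. Without the cell of conflicting label these were 6 of 8 (14 of all 26), 8 of 8 (24 of 26) and 2 of 8. Of the 6 P2+ CMPs with Cpa3, all 6 held Cd34 (41 of all 42 P2+ CMPs) and 5 held Gata2 (35 of 42). Mpo was read in 8 of the 9 P2- CMPs with Cpa3 (7 of 8 without the cell of conflicting label) and in 6 of the 6 P2+ CMPs, where 19 of 27 and 40 of 42 cells held it in all, and in 0 of 1 P2- MEP and 1 of 2 P2+ MEPs with Cpa3. Gata2, Cd34 and Mpo were thus read in most CMPs, with or without Cpa3.

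Srgn, which encodes serglycin, the core protein on which granule proteases are stored, was the only one of the 8 read in nearly every cell. Its lowest cells were at 0, 0, 62.2 and 151 CPM, its median cells at 93.4, 324.4, 430.1 and 505 CPM, and its highest at 307.8, 825, 950.3 and 1117 CPM. A read was found in 53 of 56, 45 of 47, 27 of 27 and 42 of 42 cells. The ranges overlapped, and the step between the median P2- MEP and the median P2+ MEP was the widest between neighbours in this order. Pooled levels of 98.6, 331.5, 475 and 533 CPM gave log2 ratios of P2+ to P2- of 1.75 for MEPs (1.69 to 1.81) and 0.17 for CMPs (0.13 to 0.20), and of CMPs to MEPs of 2.27 in P2- cells (2.21 to 2.33) and 0.69 in P2+ cells (0.65 to 0.72). Per length Srgn was above each other member in each population, with 44.9, 151, 216.3 and 242.9 RPKM.

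Counted over the comparisons, the genes that passed the filter on low counts moved as follows, a gene being called at a 2-fold difference in pooled CPM. A gene can pass that filter through the population in which it is high, so these counts describe the genes and do not test them, and comparisons that share a population are not independent. In P2+ against P2- MEPs 5 of the 5 were higher, where 15% of the 11860 genes tested were higher and 6.46% lower, and their median log2 ratio was 2.52 against 0.05 for the genes tested. In P2+ against P2- CMPs 0 were higher and 2, Cpa3 and Ms4a3, were lower, where 9.79% of genes were higher and 9.33% lower, with a median of 0.17 against -0.02. The sides of the limit that Mpo and Cpa3 take depend on the processing. The counting interval of Mpo (0.99) spans it, and its log2 ratio passed 1 in 6 of 9 alternatives (range over the 9 from 0.84 to 1.32), while Cpa3 was no longer 2-fold lower without the cell of conflicting label (-0.85) or with ERCC reads as the denominator (-0.76). In P2- CMPs against P2- MEPs 5 of the 5 were higher (22.5% of genes higher, 9.28% lower), with a median of at least 5.78 against 0.11, as the middle value is the lower bound of Ms4a3, which rests on 2 cells. In P2+ CMPs against P2+ MEPs 3 were higher, Mpo, Prtn3 and Cpa3, and Ms4a3 was lower (17% of genes higher, 10.3% lower), with a median of 1.85 against 0.01. With ERCC reads as the denominator the median of the genes tested shifted by -0.62, 0.33, -0.51 and 0.43 in the same order of comparisons, and the shares of genes higher and lower became 9.32 and 19.8%, 14.9 and 6.30%, 16.1 and 20.9%, and 26.1 and 5.74%. None of the ratios of Mpo, Prtn3, Ms4a3, Cpa3 and Srgn changed direction under any of the scalings tried.

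**Figure D3:**
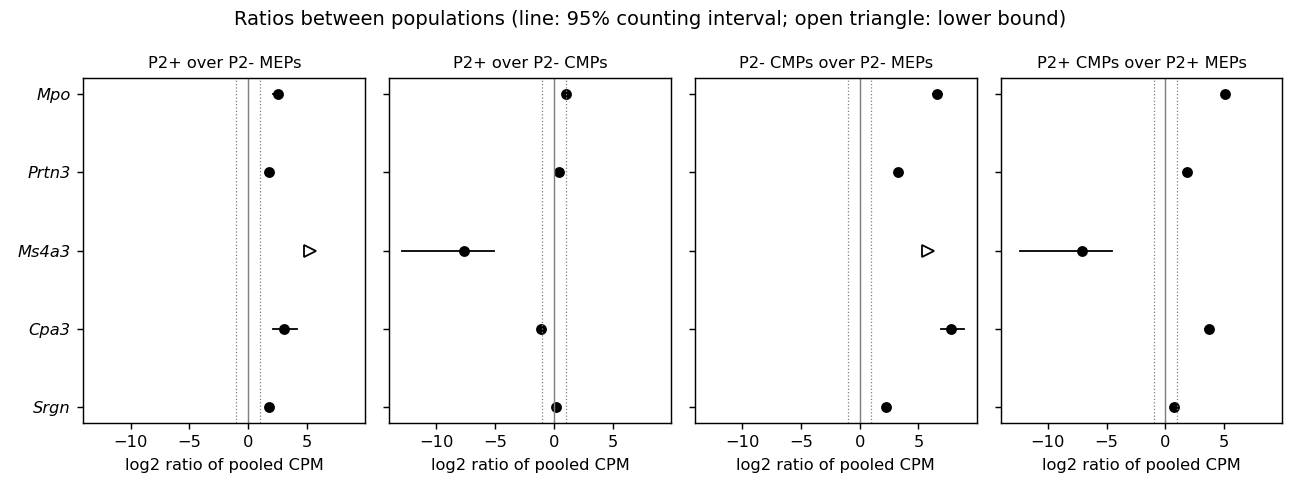
Log2 ratio of pooled CPM for Mpo, Prtn3, Ms4a3, Cpa3 and Srgn in the 4 comparisons, with 95% counting intervals as lines, open triangles for lower bounds against a population with 0 reads, and dotted lines at a 2-fold difference. The ratios of P2+ to P2- MEPs are 1.75 or more, that of Ms4a3 being a lower bound drawn at 5.23, whereas those of P2+ to P2- CMPs lie between -7.62 and 0.99.

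Single cells held these transcripts in different combinations. At 100000 reads the number of the 8 genes read per cell had medians of 1 (range 0 to 3), 1 (0 to 5), 3 (1 to 5) and 3 (2 to 4). No cell held more than 5 of the 8, and 0 of the CMPs were without any of them. Mpo and Prtn3 were read together in 2 of 56, 3 of 47, 14 of 27 and 31 of 42 cells. In MEPs these were 2 of the 4 cells with Mpo and 2 of the 10 with Prtn3 without hCD4, and 3 of 8 and 3 of 15 with it. Their levels had a Pearson r of 0.36 over the 27 P2- CMPs and -0.09 over the 42 P2+ CMPs, which is a description of cells that share a pool and differ in the RNA captured.

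**Figure D4:**
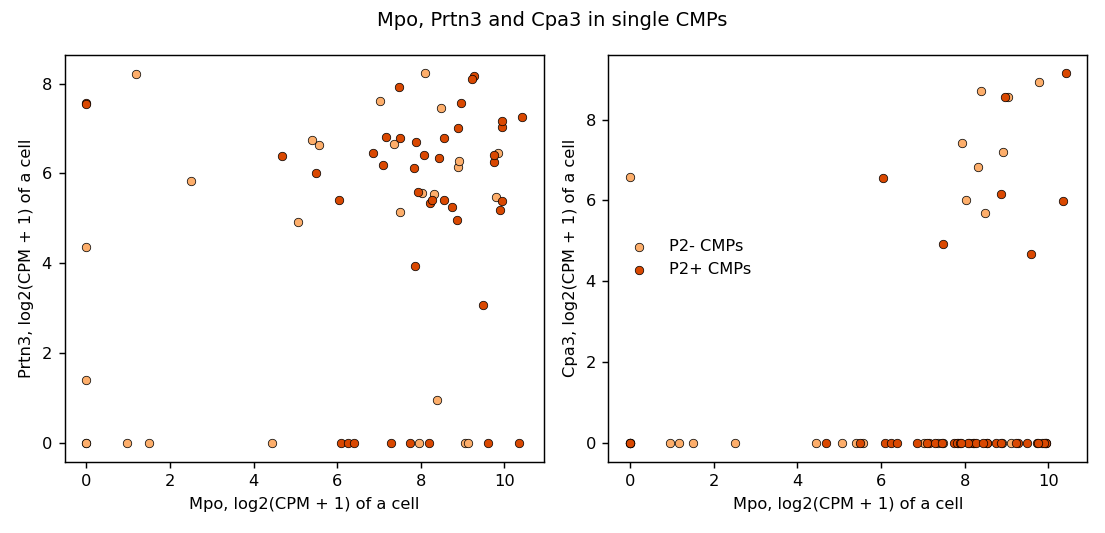
Level of Prtn3 (left) and Cpa3 (right) against that of Mpo in single P2- and P2+ CMPs, each axis as log2(CPM + 1) of a cell at full depth and 1 point per cell. Cpa3 is at 0 in most cells, and the cells that hold it have Mpo at various levels.

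Within P2- CMPs the neutrophil genes were set beside the erythroid transcripts cell by cell, and no difference was tested. Klf1 was read in 14 of the 27, and Prtn3 was read in 6 of these 14 and in 11 of the 13 without Klf1. For Mpo the counts were 8 of 14 and 11 of 13. With Gata1 in place of Klf1, Prtn3 was read in 8 of the 15 cells with it and 9 of the 12 without, and Mpo in 10 of 15 and 9 of 12, with an r of -0.41 for Prtn3 and -0.06 for Mpo. The levels of Prtn3 had an r of -0.53 with Klf1 and 0.57 with Cd34 over the 27 cells, and those of Mpo -0.37 and 0.26. Cpa3 was read in 6 of the 14 with Klf1, the cell of conflicting label among them, and in 3 of the 13 without, and its level had an r of 0.14 with Klf1 and 0.42 with Mpo. Without that cell the counts for Cpa3 were 5 of 13 and 3 of 13, with an r of 0.08 and 0.39, and the r of Mpo with Klf1 and with Cd34 was -0.43 and 0.36. In P2+ CMPs only 2 of 42 cells held Klf1, and there the r of Mpo with Cd34 was 0.65 and that of Prtn3 with Cd34 0.07. Gata1 was read in 18 of these 42, and Mpo in 16 of the 18 and in 24 of the 24 without (r = -0.38). For Prtn3 the counts were 13 of 18 and 20 of 24 (r = -0.05). All of these are correlations across cells of 1 pool, in sparse counts.

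Among the 8252 genes read in at least 25% of the P2+ CMPs, those whose level followed Mpo most closely over the 42 cells were Marcksl1 (r = 0.66), Cd34 (0.65), Fxyd5 (0.62), Arhgdib (0.60) and Vim (0.60). Over the 27 P2- CMPs the same genes had an r with Mpo of 0.15, 0.26, 0.28, 0.01 and -0.11. The 5 were chosen for their r in P2+ CMPs, and no ranking was made in P2- CMPs. For Srgn the closest were Arpp19 (0.63), Fbxl6 (0.58), Aurkaip1 (0.58), Pih1d1 (0.57) and Serinc3 (0.57), with -0.25, -0.12, 0.11, 0.35 and 0.42 in P2- CMPs. For Cpa3, read in 6 of the 42 cells, the highest values were 0.49 for Ints12, 0.48 for Sdhaf3, 0.47 for Thada, 0.47 for Nkg7 and 0.47 for Gm2225, and each rests on those few cells.

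Genes that act in the maturation of the proteases, inhibitors of cathepsins included, were measured as transcripts only. Ctsc, which encodes cathepsin C, the activating dipeptidase, was at 53.8, 48.8, 108 and 87.3 CPM. Of the 7 genes of the maturation list, all of which passed the filter, 1, 0, 4 and 2 were higher and 0, 1, 0 and 1 lower in the 4 comparisons, in the order used for the mast cell genes, with median log2 ratios of 0.14, -0.15, 1.01 and 0.70. The shares over all genes tested were 15%, 9.79%, 22.5% and 17% higher and 6.46%, 9.33%, 9.28% and 10.3% lower, so that each count but the 4 higher in P2- CMPs over P2- MEPs is within 1 gene of the share. The cystatin gene Cst7, a lysosomal inhibitor of cathepsins, was the 1 that moved in each of the comparisons between P2+ and P2- cells, with 8.005, 27.3, 24.7 and 11.3 CPM. Of the 17 genes listed for chondroitin and heparan chain synthesis and the granule membrane protein Cd63, 0, 2, 2 and 4 were higher and 1, 4, 2 and 5 lower, with medians of -0.27, -0.17, 0.34 and 0.24 on the log2 scale, where the same shares of all genes apply, and most of these counts are near them, the 4 and 5 lower in the comparisons of P2+ CMPs lying above. In that list Csgalnact1, which starts chondroitin chains, was at 0.327, 0, 21.9 and 19.4 CPM, and Chst11, a chondroitin sulphotransferase, at 35.6, 21.6, 38.9 and 6.22 CPM.

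The inhibitors of the proteases differed in their order over the populations. Serpina3g, an intracellular serpin of haematopoietic cells, was at 0.0327, 19.9, 208.7 and 330.3 CPM, and was read in 0 of 56, 5 of 47, 16 of 27 and 38 of 42 cells. Serpinb1a, which inhibits elastase, cathepsin G and proteinase 3, had 0 reads in either MEP population and was at 19.7 CPM in P2- CMPs and 39.6 CPM in P2+ CMPs, read in 4 of 27 and 14 of 42 cells. Most CMPs were thus without a read of Serpinb1a and most held Serpina3g. Serpinb6a was at 20.1, 37.9, 28.4 and 30.1 CPM and so highest in P2+ MEPs, and Serpinb9 at 6.63, 4.43, 4.58 and 14.4 CPM. Of the 9 inhibitors listed 5 passed the filter, and 1, 2, 3 and 4 of them were higher in the 4 comparisons, with 0 lower in each and medians of 0.61, 0.66, 1.43 and 1.70. Of all genes tested 15%, 9.79%, 22.5% and 17% were higher, which 1 of 5 in MEPs is near, and 6.46%, 9.33%, 9.28% and 10.3% lower.

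Other genes listed for the primary granule, the promyelocyte stage and the oxidase that works with Mpo were mostly higher in the CMP gates. Lyz2, lysozyme, was at 0, 13.2, 129 and 138 CPM. Of 24 such genes 15 passed the filter, of which 8, 1, 12 and 11 were higher and 0, 1, 0 and 0 lower in the 4 comparisons, with medians of 1.40, 0.19, 4.26 and 2.04. The shares of all genes tested were 15%, 9.79%, 22.5% and 17% higher and 6.46%, 9.33%, 9.28% and 10.3% lower, and the counts in P2+ against P2- CMPs, 1 higher and 1 lower, are no larger than these. Ncf4, a subunit of the oxidase, was at 0, 5.70, 33.3 and 64.4 CPM. The genes listed for secondary and tertiary granules, which come later, were by contrast nearly silent. Of the 13 with a count row only Padi4 passed the filter, at 0, 0, 2.24 and 4.92 CPM, and it encodes an enzyme, a peptidylarginine deiminase. Lactoferrin, Ltf, reached at most 2.67 CPM, in P2+ CMPs.

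**Figure D5:**
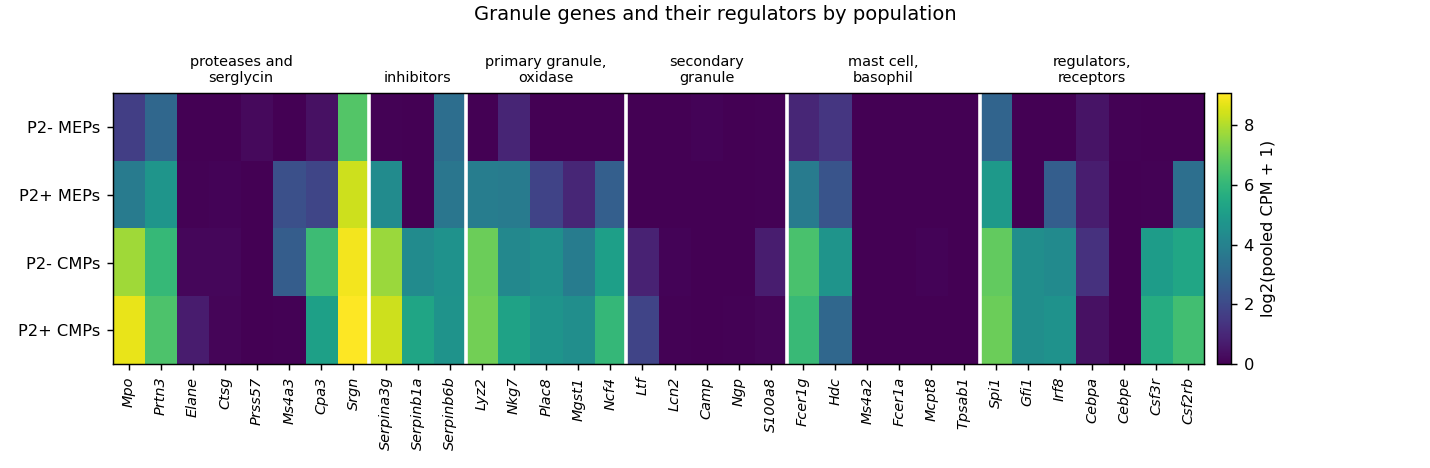
Pooled level of the 8 genes and of genes of 5 related groups in the 4 populations, coloured by log2(pooled CPM + 1). Mpo, Srgn, Serpina3g and Lyz2 are bright in the CMP rows, whereas Elane, Ctsg, Prss57, the secondary granule genes and the mast cell genes Ms4a2, Fcer1a and Tpsab1 stay dark throughout.

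The regulators and cytokine receptors of these genes were partly in place. Spi1, which encodes PU.1, was at 6.53, 27.97, 118 and 128 CPM, Gfi1, a repressor needed for granulocytes, at 0, 0, 21.3 and 21.1 CPM, and Irf8, a monocyte factor, at 0, 5.57, 19.03 and 23.7 CPM. Cebpa, the factor that opens granulocyte development, was low in each population, at 0.392, 0.665, 1.47 and 0.330 CPM, read in 3 of 27 P2- CMPs and 1 of 42 P2+ CMPs. The receptor of G-CSF, Csf3r, was at 31.5 CPM in P2- CMPs and 47.3 CPM in P2+ CMPs and had 0 and 1 reads in P2- and P2+ MEPs. Myb, a factor of immature progenitors, was at 236.7, 265.1, 234.4 and 184 CPM. Of 23 regulators and receptors 19 passed the filter, and 8, 7, 14 and 13 were higher and 1, 0, 0 and 0 lower in the 4 comparisons, with medians of 1.41, 0.61, 2.35 and 2.09, where 15%, 9.79%, 22.5% and 17% of all genes were higher and 6.46%, 9.33%, 9.28% and 10.3% lower. Runx1 itself, whose P2 promoter defined the gates, was at 23.4, 56.98, 71.5 and 156 CPM. It is counted among the 8 and the 7 genes higher with hCD4, although the cells were sorted on its own reporter.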

How the data were processed

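The libraries were single cells prepared by Smart-Seq2 with ERCC spike-in RNA. Per the methods of the study, the authors trimmed reads with Trimmomatic 0.36, aligned them with STAR 2.4.2a to GRCm38 and deposited raw counts of uniquely mapped reads per gene from HTSeq 0.6.1p1, with exons from GENCODE M12 and unstranded counting. The authors also deposited the percentage of unmapped reads per cell, and the ERCC percentage was computed from the counts. Reads assigned to more than 1 gene made up 25.6% and reads on no feature 7.40% of the uniquely mapped reads, and stayed out of all totals. The members and gene lists were chosen with earlier results of these data known.

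Cells were kept with at least 250000 reads, at most 25% unmapped and at most 15% ERCC reads, which removed 3 of 175. Sums over the cells of a population were divided by its reads on mouse genes and given as CPM, with exact intervals at 95%. Between populations the log2 ratio of pooled CPM was taken without a pseudocount, with an exact conditional binomial interval, and a population at 0 was set to 3 reads. A mean of at least 1 read over cells was needed (11860 of 49585 mouse genes), and a 2-fold difference was called. With 1 pool per population no test was made. Each cell was thinned to 100000 reads (seed 1) for the shares of cells with a read. Intervals of levels and ratios cover counting error only, PCR copies included, since the reads carry no molecular identifiers. Those of shares cover only the drawing of cells from 1 pool. Levels per length used union exons of GENCODE M21. Genes were named as the members, all of those in the lists for counts with examples, and the 5 genes most like Mpo, Cpa3 and Srgn by Pearson r on log2(CPM + 1). Upstream sequences came from RefSeq on GRCm38.p6, and an entry for Prss57 was not used here. Alternatives were other denominators (TMM factors of edgeR 4.0.16, size factors of DESeq2 1.42.0, ERCC reads, totals without mitochondrial genes and Rn18s-rs5), no filter on low genes, other thinning depths and read minimums, and cells left out. The counts of genes lower and the removal of the cell with the most reads were added as alternatives after seeing the data. The scripts were tested on simulated data and used Python 3.11.15 (numpy 2.4.6, pandas 2.3.3, scipy 1.17.1, matplotlib 3.10.9) and R 4.3.3.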

Additional observations from a re-analysis of the deposited data

Results flagged for a closer look

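Ms4a3 moved in opposite directions with hCD4 in the MEP and CMP gates, with a log2 ratio of P2+ to P2- cells of at least 5.23 in MEPs and of -7.62 in CMPs. The reads behind both values lie in 4 cells and 1 further read, and the difference between the gates was not tested, since each population is 1 pool. Cpa3 likewise had a log2 ratio of 3.04 in MEPs and of -1.09 in CMPs, and this difference was not tested either. In MEPs it rests on 3 cells with a read.

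A P2+ MEP that was left out for its 27.9% of unmapped reads, of 746927 reads in all, held 19 reads of Prtn3 and 150 reads of Srgn, and 0 of the other 6 genes. The 2 other cells left out held no read of any of the 8 genes.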

How the results depend on the processing

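The numbers of genes called higher or lower stayed within 1.5 times of those given outside the comparison of P2+ with P2- CMPs. In P2+ against P2- CMPs the count of genes higher was 0, and it was 1 with TMM factors, with the cell of highest CPM left out of each population, with totals without mitochondrial genes and Rn18s-rs5, with ERCC reads as the denominator and without the P2- CMP of conflicting label, the gene being Mpo each time, at log2 ratios of 1.04, 1.11, 1.02, 1.32 and 1.07. It was also 1 without the filter on low genes, where Elane (2.54) entered, and 1 (Mpo, 1.11) without the cell of most reads, an alternative chosen after seeing the data. The count of genes lower there was 2, and it was 1 with the ERCC denominator and 1 without the P2- CMP of conflicting label, Cpa3 being at -0.76 and -0.85. In P2+ CMPs against P2+ MEPs the ERCC denominator raised the log2 ratio of Srgn to 1.12. The size factors of DESeq2 shifted the median log2 ratio of the genes tested by -0.11 in the latter comparison. Of 168 alternative ratios with a counting interval 124 stayed within it, 44 moved beyond it and 0 changed direction from a called value. A further 26 are bounds without an interval, of which 0 changed direction. Of 128 alternative shares of cells with a read 115 stayed within their interval and 13 moved beyond it. Without its top cells Elane gave no ratio. The causes of these changes were not tested. No paired analysis was possible because the numbers only name single cells, each population is 1 pool and no test was made. Depth limits what can be said of Elane, Ctsg and Prss57, since 3 reads over a population are worth 0.0825 to 0.164 CPM.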
